A study of Mus musculus with 10 samples.

Results

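Interferon response genes, the genes that cells switch on when an interferon binds its receptor, were followed in 10 RNA-seq libraries of mouse liver. The 39 genes were taken by symbol, as the rows of the deposited gene count table whose mouse Ensembl identifiers carry the listed names, and were 39 of 46071 rows. All 39 were found, and all 39 passed the filter on low counts that left 14820 genes for testing. The FL group (3 libraries) had a control mother and a LIRKO father. The ML group (3 libraries) had a control father and a LIRKO mother. The Control group (4 libraries) had control parents on both sides. LIRKO mice are written in the labels as insulin receptor-IRlox/lox; Albumin-Cre+/-, so both copies of the insulin receptor gene are floxed and Cre is driven by the promoter of albumin, a gene of hepatocytes. Control parents were IRlox/lox; Albumin-Cre-/- and had been bred together over 4 generations to keep down any epigenetic trace of Cre, so every parent in the study carried the floxed allele. The offspring's own genotype, sex, age, strain, litter and diet are not in the labels. The labels also leave out whether each library was made from its own mouse. The p-values below therefore speak of the spread from library to library, which may be technical in part.

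Interferons act through paired receptor chains and JAK kinases on STAT proteins. STAT2 with IRF9 forms the core of a complex that binds the interferon-stimulated response element (ISRE), the main route of type I and type III interferons. Interferon gamma, made mainly by T and NK cells, acts through a STAT dimer on the gamma-activated site (GAS), and IRF1, itself induced, then acts on ISRE-like sites. In liver, hepatocytes, Kupffer cells and sinusoidal endothelium can all respond, and the products block viral RNA, tag proteins with ISG15, attack the vacuoles of intracellular pathogens, trim peptides for MHC class I and draw in T cells.

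Promoters are shown for 9 genes: the 2 that stood apart in FL (Irf1, Cxcl10), the 3 with the largest positive fold changes in ML (Psmb8, Psmb9, Cxcl9), and 4 picked because they hold matches, namely the most abundant member (Bst2), a classical ISRE promoter (Isg15) and a neighbouring pair of GTPase genes (Igtp, Irgm2). Each stretch is the 250 bases before a RefSeq start site, from RefSeq on GRCm38.p6, written 5′ to 3′ on the gene's strand, with matches to the motifs in capitals.
Irf1 promoter, chr11:53769764-53770013, plus strand: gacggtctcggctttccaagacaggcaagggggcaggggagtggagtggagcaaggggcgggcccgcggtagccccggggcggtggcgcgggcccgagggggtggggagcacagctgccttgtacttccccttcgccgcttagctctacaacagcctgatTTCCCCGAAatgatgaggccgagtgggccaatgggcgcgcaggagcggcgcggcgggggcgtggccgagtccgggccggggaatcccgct
Cxcl10 promoter, chr5:92348890-92349139, minus strand: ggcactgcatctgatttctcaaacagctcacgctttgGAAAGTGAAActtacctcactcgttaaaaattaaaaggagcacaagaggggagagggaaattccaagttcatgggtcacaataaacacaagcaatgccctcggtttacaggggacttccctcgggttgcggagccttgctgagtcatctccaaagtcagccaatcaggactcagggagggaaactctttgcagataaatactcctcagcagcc
Psmb8 promoter, chr17:34197945-34198194, plus strand: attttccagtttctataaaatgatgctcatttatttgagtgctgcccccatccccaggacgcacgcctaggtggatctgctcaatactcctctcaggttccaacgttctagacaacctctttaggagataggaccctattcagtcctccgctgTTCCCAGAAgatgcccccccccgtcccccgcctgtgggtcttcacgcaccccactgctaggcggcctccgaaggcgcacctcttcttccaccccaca
Psmb9 promoter, chr17:34187331-34187580, minus strand: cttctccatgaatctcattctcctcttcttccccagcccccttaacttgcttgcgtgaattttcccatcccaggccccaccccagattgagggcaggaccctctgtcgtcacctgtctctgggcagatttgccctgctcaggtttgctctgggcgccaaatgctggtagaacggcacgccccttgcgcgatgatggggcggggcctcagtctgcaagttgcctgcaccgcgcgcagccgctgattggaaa
Cxcl9 promoter, chr5:92328080-92328329, minus strand: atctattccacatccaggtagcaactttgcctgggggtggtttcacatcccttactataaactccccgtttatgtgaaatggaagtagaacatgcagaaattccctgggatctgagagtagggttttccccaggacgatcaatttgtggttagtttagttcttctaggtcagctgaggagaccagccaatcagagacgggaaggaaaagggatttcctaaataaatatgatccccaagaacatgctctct
Bst2 promoter, chr8:71537473-71537722, minus strand: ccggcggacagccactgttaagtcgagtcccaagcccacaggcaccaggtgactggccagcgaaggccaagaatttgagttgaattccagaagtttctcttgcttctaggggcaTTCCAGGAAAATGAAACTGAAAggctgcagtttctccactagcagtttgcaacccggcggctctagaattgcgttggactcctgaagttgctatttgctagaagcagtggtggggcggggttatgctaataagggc
Isg15 promoter, chr4:156200819-156201068, minus strand: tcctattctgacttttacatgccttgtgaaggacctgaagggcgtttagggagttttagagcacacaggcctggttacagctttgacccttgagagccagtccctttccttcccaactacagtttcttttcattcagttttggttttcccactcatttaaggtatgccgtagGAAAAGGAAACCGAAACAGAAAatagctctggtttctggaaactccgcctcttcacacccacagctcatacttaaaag
Igtp promoter, chr11:58199306-58199555, plus strand: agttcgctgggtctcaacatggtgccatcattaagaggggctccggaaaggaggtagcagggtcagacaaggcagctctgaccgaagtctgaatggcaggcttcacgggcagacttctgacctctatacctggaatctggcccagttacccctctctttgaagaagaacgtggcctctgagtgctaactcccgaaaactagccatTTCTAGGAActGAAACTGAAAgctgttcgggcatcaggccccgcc
Irgm2 promoter, chr11:58214727-58214976, plus strand: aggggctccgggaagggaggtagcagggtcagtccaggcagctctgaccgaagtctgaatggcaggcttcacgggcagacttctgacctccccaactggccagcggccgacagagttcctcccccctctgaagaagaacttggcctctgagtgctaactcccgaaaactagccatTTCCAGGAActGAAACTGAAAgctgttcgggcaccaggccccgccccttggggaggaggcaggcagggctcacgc
The motifs searched, on both strands and with matches allowed to overlap, were the ISRE core, GAAA followed after any 2 bases by GAAA, and the GAS core TTCNNNGAA. Psmb9 and Cxcl9 have no match. The Psmb8, Psmb9 and Irgm2 stretches lie inside the annotated spans of these genes (34197721 to 34201454, 34181987 to 34187764 and 58199618 to 58222782). The letters before the annotated 5′ ends of Psmb8 and Psmb9 were therefore not searched. The Igtp stretch lies just before the annotated 5′ end of Irgm2. The capitals in Irf1 and Psmb8 are GAS cores only, those in Isg15 are 3 overlapping ISRE cores, and that in Cxcl10 is a single ISRE core. In Bst2 a GAS core overlaps the first of 2 ISRE cores, and in Igtp and Irgm2 a GAS core stands just before an ISRE core. The longest run of identical letters between the Igtp and Irgm2 stretches was 55 bases.

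Over the full windows in the promoter table, from 250 bases before to 50 after each start, 31 of the 39 genes matched, with 35 windows. The table had no window for Rtp4, Iigp1, Usp18, Oas2, Mx1, Mx2, Parp14 or Gbp6. An ISRE core lay in 17 of the 35 windows (48.6%), each of a different gene, against 3.44% of all 32851 windows. GAS cores lay in 9 of the 35 windows (25.7%), against 8.3% of all windows. Both motifs lay in 5 of the 35 windows (14.3%), against 0.454% of all windows. Irf1 had a second window further downstream with no match. A match is a description of the letters, not a site of binding.

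All 10 libraries held RNA of every one of the 39 genes, at levels that differed widely between genes. Levels are given as CPM, the counts of a gene relative to the library total, with that total scaled by trimmed mean of M-values (TMM) factors, and are set between genes only after division by the length of the principal transcript. Averaged over the 10 libraries, Bst2, which encodes tetherin, a protein that holds budding virus at the cell surface, was highest at 206 CPM per kb. Iigp1, an immunity-related GTPase that attacks pathogen vacuoles, followed at 107 CPM per kb. Ifi35, Psmb9, Psmb8 and Irf7 came next, at 29.2, 29.1, 26.2 and 24.2 CPM per kb, and differed from each other by less than their spread over libraries. ML 9 carried much of these means: without it, Ifi35 was at 22.8, Irf7 at 20.7, Psmb9 at 18.9 and Psmb8 at 18.3 CPM per kb, and Irgm1, at 20.1, lay above both proteasome subunits. Oas3 was lowest at 0.218 CPM per kb, below Mx1 at 0.322 and Oas2 at 0.504.

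The interferons themselves were at or near 0. All 18 listed ligand genes were in the count table, and none passed the low-count filter. 13 of them, among them the alpha interferons Ifna1, Ifna2 and Ifna4 and the lambda interferons Ifnl2 and Ifnl3, had 0 counts in all 10 libraries. Ifng, which encodes interferon gamma, had 1 and 3 counts in FL 6 and FL 7, 2 in ML 9 and 1 each in Control 3 and Control 4. Ifnb1, the beta interferon, had 1 count, in FL 7. A count of 0 allows up to 3 counts, and this covers counting error only. Relative to the unscaled library total, 3 counts are 0.0762 to 0.161 CPM depending on the library. With the total scaled by TMM factors, 3 counts are 0.0673 CPM in Control 4 and 0.196 CPM in ML 9.

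Library totals ran from 23192571 to 31116742 counts in FL and from 26614915 to 34568205 in ML. Among controls, Control 1 was shallowest at 18655506 counts, and the remaining 3 held 37292273 to 39379940. ML 9 stood apart, with a TMM factor of 0.5768 against 0.9331 to 1.165 elsewhere. Transcripts under 1000 bp (1805 genes) lay a median of 1.67 log2 units above their 10-library mean in ML 9, followed by 0.33 for ML 10 and 0.53 for Control 1, while the remaining 7 lay between -0.60 and -0.084. Summed markers of Kupffer cells and macrophages reached 1402 CPM in ML 9, against 353 to 473 in FL, 505 and 316 in the other ML libraries and 326 to 556 in Control. All 11 markers of that list were present in every library, and 9 of 11 were highest in ML 9. Clec4f (501 CPM) and Cd5l (284 CPM) made up most of the sum in ML 9, whereas Csf1r (31.5 CPM) and Marco (4.37 CPM) were within the range of the other libraries. Markers of T and NK cells summed to 16.1 CPM in ML 9, against 3.49 to 6.55 in the other 9 libraries, with 8 of 10 highest there. Cd3d gave 5.61 CPM of that sum, and Cd3e (0.326 CPM) and Cd4 (1.24 CPM) were within the range of the others. Markers of B cells summed to 9.58 CPM in ML 9 and 5.36 in Control 1, with 0.688 to 2.58 elsewhere. Neutrophil markers summed to 8.22 CPM in ML 9, against 0.471 to 4.67 elsewhere. Of these, 2 of 5 were highest in ML 9, S100a9 (5.15 CPM) and S100a8 (2.87 CPM). Retnlg (0.13 CPM) and Ngp (0.0652 CPM) were within the range of the others, and Ly6g was at 0 in ML 9. Sinusoidal endothelial markers summed to 196 CPM in ML 9, against 82.6 to 148 elsewhere, and 1 of the 5, Clec4g (109 CPM), was highest there. Cholangiocyte markers summed to 15, 9.18 and 4.8 CPM in FL and 20.3, 8.41 and 4.78 CPM in ML, against 3.19 to 7.26 CPM in Control. In bulk tissue, fewer cells of a type and less RNA per cell cannot be told apart. The hepatocyte markers summed to 106193 CPM in ML 9 and to 59124 to 91799 CPM elsewhere, with 3 of 6 highest in ML 9. Apoa1 gave 32766 CPM of the ML 9 sum. Alb (48631 CPM) and Cyp2e1 (7475 CPM) were within the range of the others, and Cps1 (1373 CPM) was below it. Plasmacytoid dendritic cell markers summed to 14 CPM in ML 9 and to 0.521 to 1.23 CPM elsewhere. Cox6a2 gave 11.5 CPM of that sum, and Siglech (0.522 CPM) was within the range of the others.

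In FL livers, 2 interferon response genes lay apart from the controls: Irf1, the transcription factor induced early by interferon gamma, and Cxcl10, a chemokine that attracts T cells. Both were higher in each FL library than in each Control library. That is 5.13% of the 39 genes, where 2.79% of all genes tested were wholly higher in FL and 2.92% wholly lower. Taken over both directions, the share of the 39 was no larger than that of all genes. The other 37 genes overlapped between the groups. Neither gene passed the test over all genes.

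Irf1 (ENSMUSG00000018899, chromosome 11, 53770014 to 53778374) had 33.7, 41.0 and 25.2 CPM in FL libraries, against 14.8, 13.4, 9.03 and 14.3 CPM in Control libraries. The lowest FL library was thus above the highest Control library, and FL averaged 33.3 ± 7.91 CPM (SD, n = 3) and Control 12.9 ± 2.63 CPM (SD, n = 4). The FL over Control log2 fold change of Irf1 was 1.37, with a standard error (SE) of 0.37 and an edgeR adjusted p of 0.772 (unadjusted p = 0.00316). With each library left out in turn and under each other setting, the Irf1 log2 fold change stayed between 1.20 and 1.54. Cxcl10 (ENSMUSG00000034855, chromosome 5, 92346638 to 92348889) had 3.63, 5.70 and 2.62 CPM in FL, against 2.45, 1.76, 2.43 and 2.20 CPM in Control. The groups were separated by the narrow gap between FL 7 and Control 1. The Cxcl10 log2 fold change was 0.85 (SE 0.38, edgeR adjusted p = 0.9997), and 0.50 without FL 6. Art3 overlaps Cxcl10 on the opposite strand and held 461 counts over the series, against 851 for Cxcl10, and the strand setting of the counting is not given in the sources used here.

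**Figure D1:**
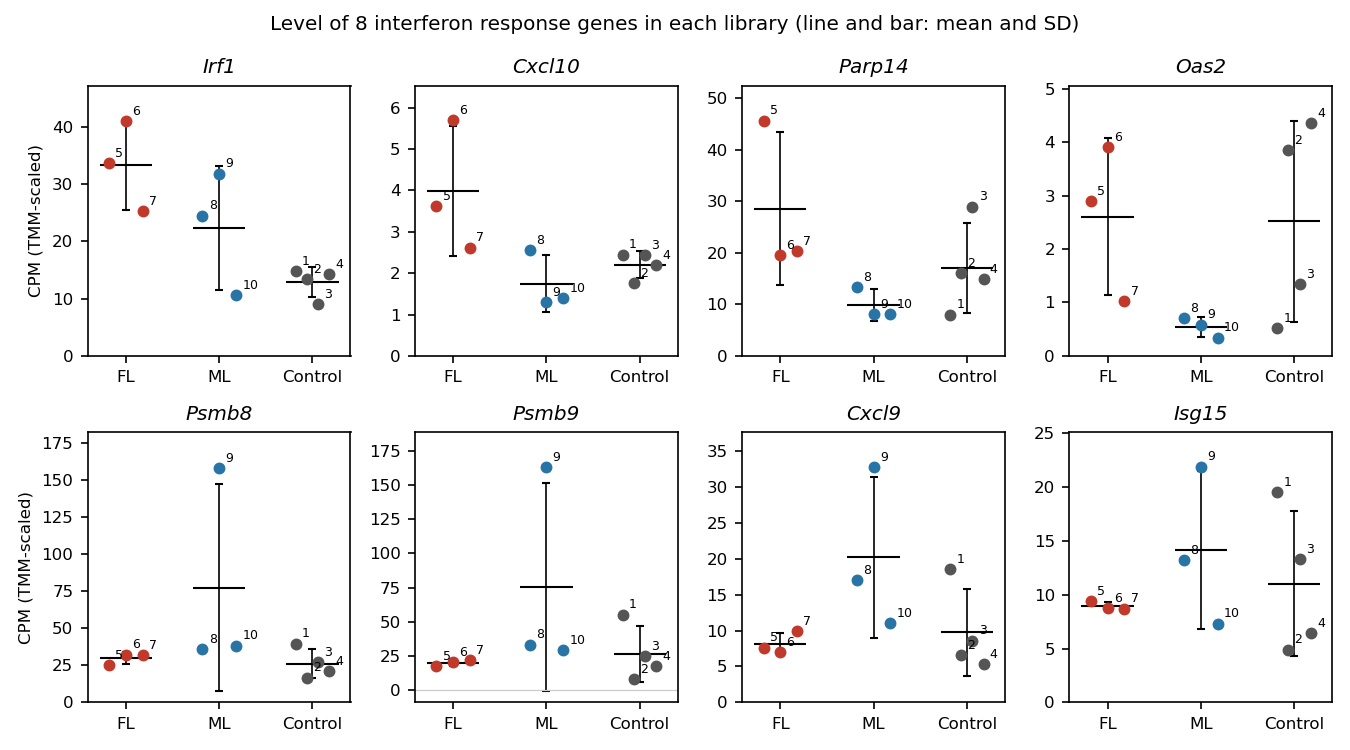
Level of 8 interferon response genes in each library, in CPM scaled by TMM factors (linear axis), for FL (libraries 5 to 7), ML (8 to 10) and Control (1 to 4); numbers name the libraries, lines are means and bars are SD. The 3 FL points of Irf1 lie at 25.2 to 41.0, above all 4 Control points, and ML 9 is the highest point for Psmb8, Psmb9 and Cxcl9.

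A gene was said to pass at a Benjamini-Hochberg adjusted p under 0.05 over the 14820 genes in edgeR's quasi-likelihood test. In FL against Control, 0 of the 39 genes passed in edgeR, DESeq2 or limma-voom, where 0.0135% of all genes passed in edgeR. At an unadjusted p under 0.05 there were 2 of 39 (5.13%), where 3.53% of all genes were called. Both were higher in FL, where 1.63% of all genes were called higher and 1.9% lower. FL lay wholly below Control for 0 of 39 genes. The log2 fold change was above 0 for 28 of 39 genes (71.8%), where it was above 0 for 44.7% of all genes, and its median was 0.14 over the 39 genes and -0.049 over all genes. That median was 0.02 without FL 5, 0.026 without Control 2 and 0.075 without Control 4, and it was 0.24 to 0.25 without Control 1, Control 3 or FL 7, 0.28 with total-count scaling and 0.31 with quality weights.

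Of the signalling genes, all 4 transcription factors had log2 fold changes above 0 in FL. Stat2, the STAT that partners IRF9, had 76.5, 74.1 and 41.8 CPM in FL, against 30.4, 61.1, 39.7 and 66.2 CPM in Control, with a log2 fold change of 0.38 (SE 0.39). Irf9 was at 0.15 (SE 0.28), and Irf7, which is needed for a full alpha interferon response, was at 0.11 (SE 0.39). The cytosolic RNA sensors Ddx58 (RIG-I) and Ifih1 (MDA5) and the ubiquitin ligase Trim25, which acts on RIG-I, lay between -0.065 and 0.12.

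Antiviral effectors in FL were spread around 0 by family. The OAS family, which includes enzymes that make the messenger that activates RNase L, lay above 0 in 5 of 5, with a median of 0.32. The IFIT proteins, which bind foreign RNA caps, lay above 0 in 3 of 3, with a median of 0.17. Oas3 had 2.00, 1.94 and 1.02 CPM in FL, against 0.570, 0.968, 1.60 and 0.740 CPM in Control, a log2 fold change of 0.75 (SE 0.61, edgeR adjusted p = 0.9997). The spread of Oas3 in Control reached into the FL range through Control 3. Isg15, the ubiquitin-like tag, and Usp18, the protease that removes it, were the only family with both members below 0. Usp18 had 8.78, 6.11 and 8.56 CPM in FL, against 19.9, 5.63, 15.0 and 5.40 CPM in Control, where 2 libraries were high and 2 were low. The Usp18 log2 fold change was -0.55 (SE 0.48, edgeR adjusted p = 0.9997), -0.15 without Control 1, and 0.073 with sample quality weights, so its direction turned. Mx2, an antiviral dynamin-like GTPase, had 6.56, 8.25 and 3.76 CPM in FL, against 3.30, 7.74, 2.67 and 3.99 CPM in Control. FL and Control overlapped for Mx2, at a log2 fold change of 0.48 (SE 0.44, edgeR adjusted p = 0.9997), which was 0.22 without FL 6 and 0.89 without Control 2.

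The largest FL levels of several GTPase and ADP-ribosyltransferase genes came from a single library, FL 5. Parp14, an ADP-ribosyltransferase, had 45.7, 19.6 and 20.4 CPM in FL, against 8.03, 16.1, 29.0 and 14.9 CPM in Control. Its log2 fold change was 0.75 (SE 0.45, edgeR adjusted p = 0.9997), 0.23 without FL 5 and 1.13 without Control 3. Irgm1, a regulator of the immunity-related GTPases, had 95.0, 40.6 and 45.2 CPM in FL, against 26.4, 33.1, 58.6 and 37.8 CPM in Control. FL 5 was above every control for Irgm1 while FL 6 and FL 7 lay among them, and the log2 fold change was 0.63 (SE 0.47, edgeR adjusted p = 0.9997), or 0.14 without FL 5 and 0.41 with a surrogate variable. Irgm2, a second regulator, had 47.6, 26.5 and 38.3 CPM in FL, against 24.4, 19.9, 39.9 and 22.6 CPM in Control. That gave a log2 fold change of 0.49 (SE 0.40, edgeR adjusted p = 0.9997), 0.28 without FL 5 and 0.75 without Control 3. Igtp and Irgm2 share exons on 1 strand in the annotation, so reads of the pair are uncertain between them.

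In ML livers, the immunoproteasome subunits Psmb8 and Psmb9, which replace catalytic subunits of the standard proteasome to cut peptides for MHC class I, and the T cell chemokine Cxcl9 had the largest positive fold changes. The values of Psmb8 and Psmb9 rested mainly on the library ML 9, and that of Cxcl9 in part. Oas2 had the largest negative one. No gene passed, and none of the 39 was separated between ML and Control.

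Psmb8 (ENSMUSG00000024338, chromosome 17, 34197721 to 34201454) had 35.8, 158 and 38.3 CPM in ML, against 39.7, 16.8, 27.4 and 21 CPM in Control. Psmb9 (ENSMUSG00000096727, chromosome 17, 34181987 to 34187764), its neighbour, had 33.4, 163 and 29.7 CPM in ML, against 55.4, 8.18, 25.1 and 17.5 CPM in Control. For both, ML 9 was far above every other library and Control 1 was the highest control. The log2 fold change of Psmb8 was 1.56 (SE 0.50, edgeR adjusted p = 0.301), and that of Psmb9 was 1.51 (SE 0.66, edgeR adjusted p = 0.305). Without ML 9 they were 0.51 and 0.27, and with a surrogate variable 0.33 and 0.021. Psmb9 shares its locus with Tap1 on the opposite strand, which held 7072 counts over the series against 9721 for Psmb9.

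Cxcl9 had 17.0, 32.7 and 11.0 CPM in ML, against 18.6, 6.55, 8.59 and 5.34 CPM in Control. Control 1 lay above ML 8 and ML 10, and the other 3 controls lay below all ML libraries. The Cxcl9 log2 fold change was 1.05 (SE 0.47, edgeR adjusted p = 0.307), 0.54 without ML 9 and 0.28 with a surrogate variable. The marker levels and the short-transcript deviation of ML 9 and Control 1 given above, including the lists and markers that were not raised, stand beside these values, and their part in the result was not tested.

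Oas2 had 0.709, 0.587 and 0.341 CPM in ML, against 0.513, 3.85, 1.35 and 4.35 CPM in Control. The 3 ML libraries were close together and low, and Control 1 was among them. The log2 fold change of Oas2 was -2.21 (SE 0.74, edgeR adjusted p = 0.301), and -0.94 with a surrogate variable. Without ML 9 it was -2.24. The other OAS genes of ML were at -0.96 (Oas3), -0.87 (Oasl2), -0.63 (Oasl1) and 0.84 (Oas1a), with SEs of 0.65, 0.62, 0.47 and 0.50. Oas1a has a near-identical paralog, Oas1g, so its counts are uncertain.

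Among the signalling genes of ML, Irf1 had 24.5, 31.8 and 10.6 CPM, against 14.8, 13.4, 9.03 and 14.3 CPM in Control. ML 8 and ML 9 were above all controls and ML 10 was among them, at a log2 fold change of 0.79 (SE 0.37, edgeR adjusted p = 0.313), 0.46 without ML 9 and 0.24 with sample quality weights. Irf7 had 45.5, 106 and 36.6 CPM in ML, against 50.4, 28.4, 45.9 and 27.7 CPM in Control. The Irf7 log2 fold change was 0.72 (SE 0.39, edgeR adjusted p = 0.347) and 0.12 without ML 9, the 1 library outside the control range. Ddx58 had 11.6, 3.98 and 7.23 CPM in ML, against 7.98, 9.37, 26.4 and 17.0 CPM in Control. ML 9 and ML 10 were below every control for Ddx58, whose log2 fold change was -1.0 (SE 0.48, edgeR adjusted p = 0.318), -0.59 without Control 3 and -0.37 with a surrogate variable.

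Bst2 had 161, 335 and 173 CPM in ML, against 189, 120, 124 and 115 CPM in Control. Apart from Control 1, each control was below each ML library, and the log2 fold change was 0.71 (SE 0.33, edgeR adjusted p = 0.313), 0.30 without ML 9 and 0.12 with a trend on transcript length and GC content removed. The guanylate-binding proteins, GTPases that coat pathogen vacuoles, lay above 0 in 4 of 4 in ML, between 0.10 and 0.54.

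The remaining members were outside the 8 of lowest p in these comparisons. Rsad2 (viperin, which makes a chain-terminating nucleotide), its neighbour Cmpk2 (a nucleotide kinase), Ifi35, Ifi44, Xaf1 (a pro-apoptotic factor) and Rtp4 had log2 fold changes of -0.27 to 0.14 in FL and of -0.39 (Cmpk2) to 0.86 (Ifi35) in ML against Control. Ifi35 had 33.0, 117 and 30.6 CPM in ML, against 61.5, 22.5, 25.0 and 23.5 CPM in Control, so ML 9 and Control 1 were again its highest libraries. Ifit1, Ifit2 and Ifit3 were at 0.17, 0.15 and 0.27 in FL and at -0.12, -0.17 and 0.15 in ML, with SEs of 0.42 to 0.46, and Ifit3 has a near-identical paralog, Ifit3b. Mx1 was at 0.037 in FL and 0.086 in ML (SE 0.57 each). Gbp2, Gbp3, Gbp6 and Gbp7 lay between -0.19 and 0.25 in FL. Igtp and Iigp1 were at 0.35 and -0.18 in FL and at 0.29 and 0.31 in ML, with SEs of 0.35 and 0.41 in both.

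**Figure D2:**
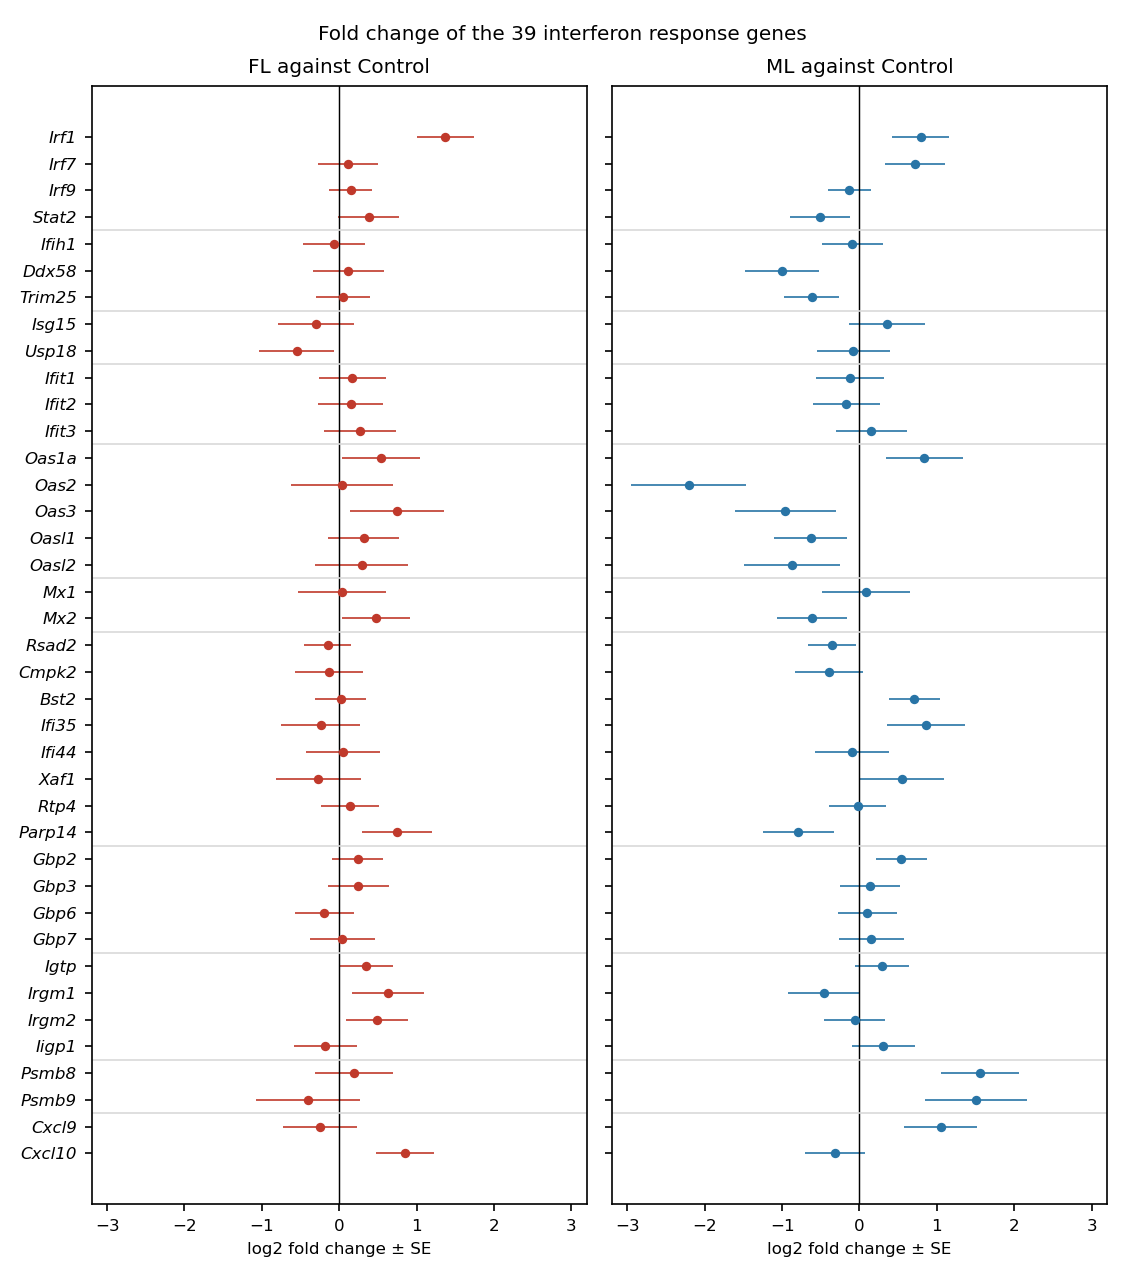
Log2 fold change of the 39 genes in FL (left) and ML (right) against Control, with points for edgeR estimates and bars for 1 SE; grey lines separate the families. In FL, 28 of 39 points lie right of 0 and Irf1 is furthest right at 1.37, and in ML the points run from -2.21 (Oas2) to 1.56 (Psmb8).

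Over the 39 genes in ML against Control, 0 passed in edgeR, DESeq2 or limma-voom, where 0% of all genes passed in edgeR. At an unadjusted p under 0.05 there were 4 (10.3%), with Psmb8, Psmb9 and Cxcl9 higher and Oas2 lower, where 16.1% of all genes were called, so the share of the 39 was no larger than the background. Of all genes, 8.81% were called higher and 7.33% lower. DESeq2 had 7 at an unadjusted p under 0.05 and limma-voom had 3. Log2 fold changes were above 0 for 18 of 39 genes (46.2%), where 47.1% of all genes were above 0, and the median was -0.064 over the 39 genes and -0.047 over all genes. ML and Control did not overlap for 0 of 39 genes, where 2.17% of all genes were wholly higher and 2.86% wholly lower.

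The direction in ML went with transcript length across all genes, and the interferon response genes spanned that range. In ML against Control, genes with a principal transcript under 1000 bp had a median log2 fold change of 0.94, and the 2 members there, Isg15 and Bst2, a median of 0.53. From 1000 to 2000 bp the medians were 0.72 over 9 members and 0.30 over all genes. From 2000 to 3000 bp they were 0.10 over 13 members and -0.028 over all genes. Between 3000 and 5000 bp the medians were -0.39 over 11 members and -0.24 over all genes. At 5000 bp and more they were -0.35 over 4 members and -0.54 over all genes. The ML libraries differed: transcripts under 1000 bp had a median deviation of 1.67 in ML 9, 0.33 in ML 10 and -0.084 in ML 8. Against the quartiles of genes of like length, 20 of the 39 genes lay within the band, 11 above it, among them Psmb8, Psmb9 and Cxcl9, and 8 below it, among them Oas2, Oas3, Oasl1 and Oasl2. Quartiles by definition leave set shares of all genes above and below the band, and the counts of the 39 were near those shares.

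**Figure D3:**
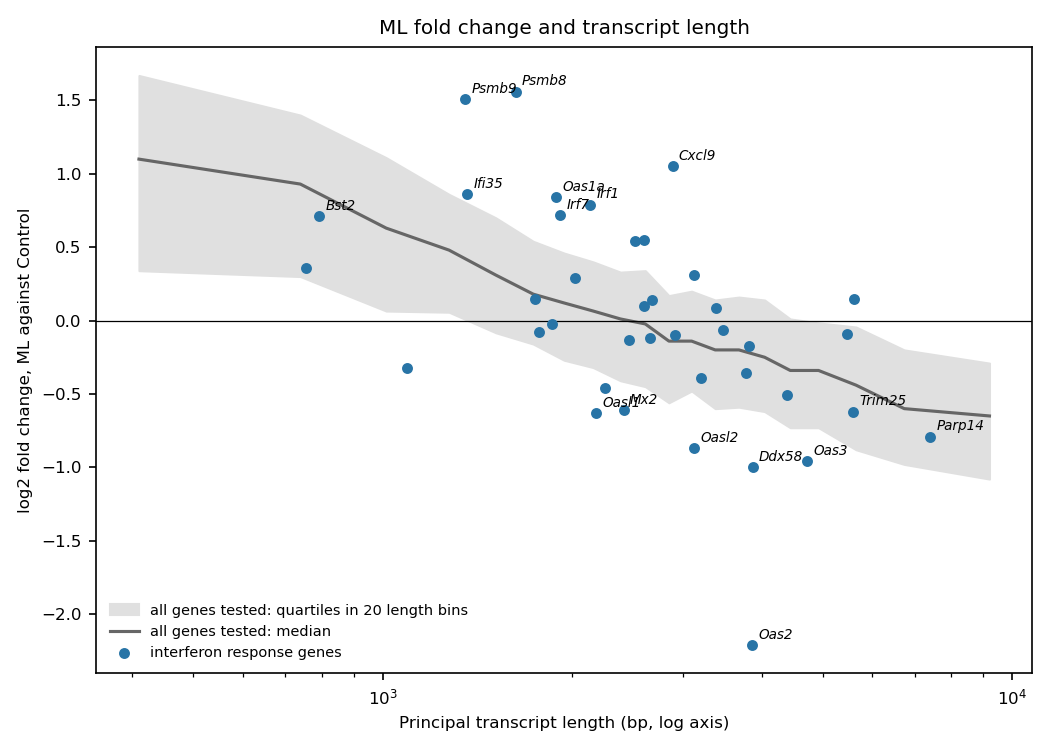
Log2 fold change of ML against Control (vertical) by principal transcript length in bp (horizontal, log axis); blue points are the 39 interferon response genes, the line is the median of all tested genes in 20 length bins and the band their quartiles. The line slopes from above 0 for short transcripts to below 0 for long ones, and Psmb8 at 1.56, Cxcl9 at 1.05 and Oas2 at -2.21 lie outside the band.

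Set directly against each other, FL and ML livers had fold changes on both sides of 0. FL was higher for Oas2, Oas3, Mx2, Ddx58, Parp14 and Cxcl10 and lower for Psmb8, Psmb9 and Cxcl9, each at an unadjusted p under 0.05. The higher genes include antiviral genes, an ADP-ribosyltransferase gene and a T cell chemokine, and the lower genes include another T cell chemokine. These 9 genes were 23.1% of the 39, where 20% of all genes were called. None of the 9 passed over all genes. FL against Control and ML against Control share the 4 control libraries, whereas this comparison uses none of them except for the shared estimate of spread.

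Parp14 had 45.7, 19.6 and 20.4 CPM in FL, against 13.4, 8.09 and 8.09 CPM in ML. All FL libraries were above all ML libraries, at a log2 fold change of 1.53 (SE 0.49, edgeR adjusted p = 0.238), which was 0.86 with the trend on length and GC content removed and 0.76 with a surrogate variable. Oas2 had 2.89, 3.91 and 1.02 CPM in FL, against 0.709, 0.587 and 0.341 CPM in ML, also without overlap. The Oas2 log2 fold change was 2.25 (SE 0.77, edgeR adjusted p = 0.238), and 0.92 with a surrogate variable. For Oas3, FL had 2.00, 1.94 and 1.02 CPM, against 1.05, 0.130 and 0.248 CPM in ML. FL 7 lay just under ML 8, and the log2 fold change was 1.71 (SE 0.69, edgeR adjusted p = 0.238), 0.78 with a surrogate variable and 3.03 without ML 8. Oas3 had only 2 counts in ML 9 and 8 in ML 10, so the value without ML 8 rests on levels near 0.

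Cxcl10 had 3.63, 5.70 and 2.62 CPM in FL, against 2.55, 1.30 and 1.40 CPM in ML, at a log2 fold change of 1.17 (SE 0.42, edgeR adjusted p = 0.238). The other chemokine of the list went the other way: Cxcl9 had 7.63, 7.01 and 9.90 CPM in FL, against 17.0, 32.7 and 11.0 CPM in ML, at -1.30 (SE 0.52, edgeR adjusted p = 0.238). Neither chemokine overlapped between FL and ML. Mx2 had 6.56, 8.25 and 3.76 CPM in FL, against 3.39, 3.52 and 1.86 CPM in ML, at 1.09 (SE 0.48, edgeR adjusted p = 0.245).

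Psmb8 had 25.2, 32.3 and 32.1 CPM in FL, against 35.8, 158 and 38.3 CPM in ML, and Psmb9 had 17.9, 20.6 and 21.9 CPM in FL, against 33.4, 163 and 29.7 CPM in ML. Every FL library was below every ML library for both subunits. The log2 fold changes were -1.37 for Psmb8 (SE 0.55, edgeR adjusted p = 0.238) and -1.90 for Psmb9 (SE 0.73, edgeR adjusted p = 0.238). Without ML 9 they were -0.33 and -0.67, and with a surrogate variable they turned to 0.14 and 0.19. Cxcl9 without ML 9 was at -0.79.

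In FL against ML, 0 of 39 genes passed in edgeR, DESeq2 or limma-voom, where 0.00675% of all genes passed in edgeR. The 9 genes at an unadjusted p under 0.05 were 23.1% of the 39, where 20% of all genes were called, with 11 in DESeq2 and 9 in limma-voom. FL was higher for 6 of 39 (15.4%) and lower for 3 of 39 (7.69%), where 7.59% of all genes were called higher and 12.4% lower. FL lay wholly above ML for 6 of 39 genes (15.4%), where 16.6% of all genes did so, and wholly below for 4 of 39 (10.3%), where 15.1% did so. The shares without overlap were at or below those of all genes, while the share called higher at an unadjusted p was above that of all genes and the share called lower was below it. The median log2 fold change was 0.15 over the 39 genes and 0.041 over all genes, and 24 of 39 genes (61.5%) were above 0, where 52.1% of all genes were.

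Within groups, many of the genes were high or low together in the same library. FL 5 was the highest FL library for 26 of 39 genes (66.7%), where it was highest for 34.7% of all genes. ML 10 was the lowest ML library for 30 of 39 genes (76.9%), where it was lowest for 23.7% of all genes, and it lay above the 10-library mean for 5 of 39. Among controls, Control 1 and Control 3 lay above the 10-library mean for 24 and 27 of 39 genes, and Control 2 and Control 4 for 9 and 7. All of the 10 libraries had between 46.2% and 52.2% of all genes above their mean.

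Some members differed several-fold among the controls. Isg15 had 9.41, 8.77 and 8.71 CPM in FL and 13.2, 21.9 and 7.32 CPM in ML, against 19.5, 4.89, 13.3 and 6.46 CPM in Control. The 3 FL libraries were nearly level for Isg15, while the highest control was 4.00 times the lowest. Oas2, Psmb9 and Usp18 had control ratios of 8.48, 6.77 and 3.68.

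**Figure D4:**
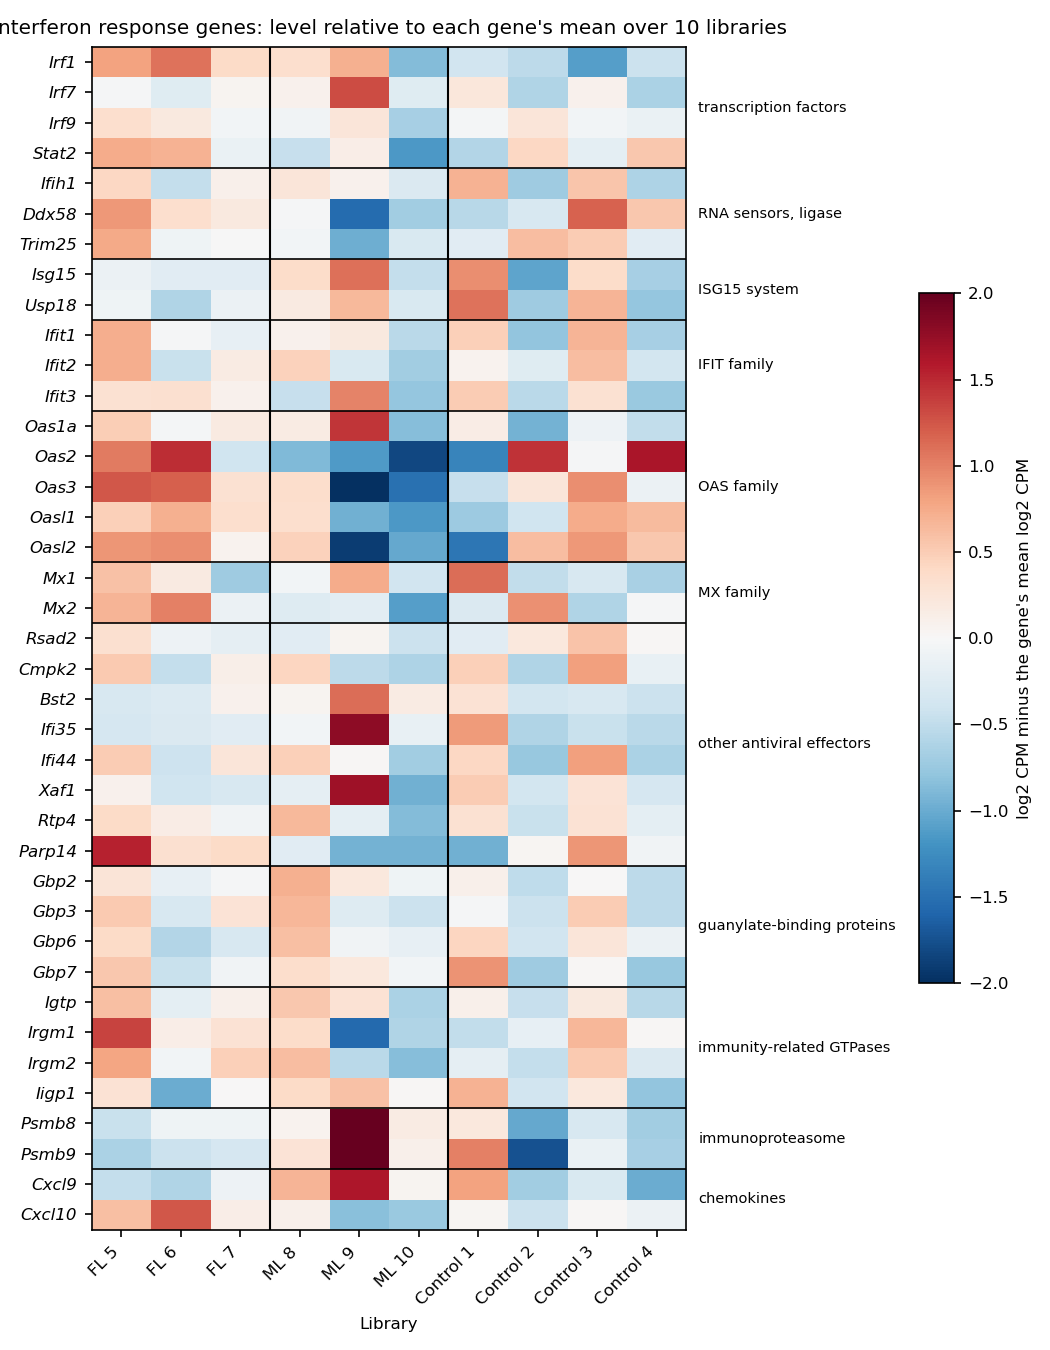
Level of each of the 39 genes (rows, grouped by family) in each of the 10 libraries (columns, FL then ML then Control), as log2 CPM minus the gene's mean over the 10 libraries; red is above that mean and blue below it, and colours end at 2 units either way. FL 5 is above the mean for 31 of 39 genes and ML 10 for 5 of 39, and Psmb8 and Psmb9 are darkest in ML 9.

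Genes with and without an ISRE core in the promoter window were described side by side. In FL against Control, 14 of the 17 genes with the core had a log2 fold change above 0, with a median of 0.25, as did 9 of the 14 without it, with a median of 0.081. In ML against Control, 8 of 17 genes with the core were above 0, with a median of -0.064, and 7 of 14 without it, with a median of 0.23. Irf1, Psmb8 and Cxcl9, which led the positive fold changes in FL or ML, had no ISRE core in these windows, whereas Cxcl10 and Bst2 did. Psmb8, Psmb9 and Irf9 were counted as without the core, from windows that lay inside the annotated genes. Irgm1 and Irgm2 were counted as with the core, also from windows inside the annotated genes.

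Other genes of the pathway gave no call. Of 15 listed receptor, JAK and STAT genes, 14 were tested, and 8 were above 0 in FL and 7 in ML against Control. Irf5, a transcription factor of myeloid and B cells, had 22.4, 19.7 and 24.5 CPM in FL and 16.7, 38.6 and 15.1 CPM in ML, against 15.7, 7.18, 11.7 and 14.3 CPM in Control. Every FL library was above every control, and the Irf5 log2 fold change was 0.86 (SE 0.38, edgeR adjusted p = 0.9997) in FL and 0.94 (SE 0.38, edgeR adjusted p = 0.301) in ML. Stat3 went the other way in ML, with 51, 25.4 and 48.4 CPM, against 35.8, 290, 141 and 95.2 CPM in Control. Control 1 lay within the ML range, and the Stat3 log2 fold change was -1.76 (SE 0.58, edgeR adjusted p = 0.301). In FL against ML, Stat3 was at 1.77 (SE 0.61, edgeR adjusted p = 0.238). Of 12 tested nucleic acid sensors and adaptors, 9 were above 0 in FL and 4 in ML. Among 9 tested inhibitors of the pathway, 4 were above 0 in FL and 2 in ML.

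Irf2bp2, a repressor that partners IRF2, had 22.6, 48.5 and 23.6 CPM in FL and 19.4, 10.5 and 45.1 CPM in ML, against 32.6, 104, 91.8 and 104 CPM in Control. Control 1 lay within the FL and ML ranges and the other 3 controls above them. The Irf2bp2 log2 fold change was -1.40 (SE 0.55, edgeR adjusted p = 0.9997) in FL and -1.73 (SE 0.56, edgeR adjusted p = 0.301) in ML. A further 53 interferon-stimulated genes were tested, of which 37 were above 0 in FL, with a median of 0.10, and 29 in ML, with a median of 0.073. Of 16 genes of MHC class I and its loading, 7 were above 0 in FL and 8 in ML. In ML, Psmb10, the remaining catalytic subunit of the immunoproteasome, had 35.9, 117 and 43.2 CPM, against 45.7, 21.9, 34.9 and 25.7 CPM in Control, at 1.03 (SE 0.41, edgeR adjusted p = 0.301). ML 9 was again the highest library. None of these lists had a gene that passed in FL against Control, ML against Control or FL against ML.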

How the data were processed

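Per the labels' protocols, poly(A) RNA from liver was sequenced from both ends after a strand-marking library kit. The deposited values are raw gene counts, 1 column for each of 10 libraries. STAR and featureCounts were run by the authors on GRCm38, per the submitters' processing notes. Which versions, annotation and strand option were used is not given in the sources used here, so reads of overlapping, antisense or near-identical genes are uncertain. Of 46071 rows, 45229 matched GENCODE M21 by identifier, and 842 did not.

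Library sizes were scaled with TMM factors, and filterByExpr with a minimum count of 10 left 14820 genes. edgeR 4.0.16 (R 4.3.3) was run with robust quasi-likelihood F tests over all 10 libraries and 1 coefficient per group, which gave 7 residual degrees of freedom and a common biological coefficient of variation of 0.448. Tests were two-sided, p-values were Benjamini-Hochberg adjusted over all genes tested, and the threshold was 0.05. A log2 fold change has the first-named group on top, and SE is the absolute fold change over the root of F. Groups came from the sample titles. The fit was tested on simulated data with known fold changes, for FL against Control, ML against Control and FL against ML in that order. Of 50 genes changed 2-fold it called 1, 2 and 0, and of 50 changed 4-fold it called 26, 29 and 17. Every pair of libraries within a group was further apart than sampling noise allows (85.5 to 595 in chi-square over its degrees of freedom), and each was counted as 1 sample.

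In each comparison the 8 members with the lowest unadjusted p were given in full. Of each other list the 2 genes with the lowest p could be named. Genes outside this rule, such as Isg15, Stat2 and the other OAS genes, were named to describe their families after their values were seen. The members and lists were chosen with earlier results of these data known.

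Alternatives were DESeq2 1.42.0, limma-voom (limma 3.58.1), RLE and upper-quartile factors, no low-count filter or 1 on CPM, only the compared groups in the fit, sample quality weights, a surrogate variable (sva 3.50.0), removal of a per-library trend on transcript length and GC content, leaving out Control 1 and ML 9 together, and leaving out each library. Total-count scaling was added after seeing the data. Promoter windows came from RefSeq on GRCm38.p6.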

Additional observations from a re-analysis of the deposited data

Results flagged for a closer look

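3 genes each had 1 library of the 4 controls far from the rest, and in each it was Control 1, the library with the fewest counts. The gap to the nearest other control, divided by the range of the group, was above Dixon's limit for a group of 4, a limit that chance passes in about 5% of groups. Over the 39 genes, each with 1 group of 4, that chance rate applies to every gene. Ifi35 had 61.5 CPM in Control 1, against 22.5 to 25 CPM in the other controls (ratio 0.935). Mx1 had 2.22 CPM in Control 1, against 0.605 to 0.776 CPM in the other controls (ratio 0.894). Bst2 had 189 CPM in Control 1, against 115 to 124 CPM in the other controls (ratio 0.884).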

How the results depend on the processing

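No interferon response gene passed in any of 59 fits, and the lowest adjusted p was 0.06 (Cxcl9, ML against Control without Control 1). Over the fits of ML against Control, Psmb8 and Oas2 also reached 0.06 at their lowest, and Psmb9 reached 0.0604. No paired analysis was possible because the groups share no replicate number. Direction turned for Usp18 in FL against Control with quality weights (0.073) and, with a surrogate variable in FL against ML, for Psmb9 (0.19) and Psmb8 (0.14). The median over the 39 genes turned in ML against Control with limma-voom (0.012) and without Control 1 and ML 9 (0.05), and ranged from -0.21 to 0.20 with each library left out. In FL against ML it ranged from -0.10 to 0.32. The causes were not tested. In FL against Control, members at an unadjusted p under 0.05 were 1 with limma-voom, upper-quartile factors, total-count scaling or no filter, and 1 to 2 with each library left out. In ML against Control they were 7 with DESeq2 or without Control 1 and ML 9, 2 with total-count scaling or the compared groups only, 11 with quality weights, 0 with a surrogate variable, and 1 (without ML 9) to 9 (without Control 1 or ML 10) with each library left out. In FL against ML they were 1 with a surrogate variable and 2 (without FL 5) to 14 (without ML 8). Genes passing in FL against Control, ML against Control and FL against ML were 52, 46 and 54 with DESeq2 and 1, 3 and 2 without a filter. Quality weights gave 4 in FL against Control and in FL against ML, limma-voom gave 1 in FL against Control, and FL against ML had 2 with the length and GC trend removed and 0 with total-count scaling or the compared groups only. Leaving out each library gave 0 to 2 in FL against Control, 0 to 1 in ML against Control and 0 to 1 in FL against ML. Total-count scaling moved the median of all genes to 0.079, -0.25 and 0.37, and the members relative to it stood at 0.20, -0.0054 and 0.082. With 3 or 4 libraries a group the median SE was 0.44 to 0.47, and differences of up to 2.25 log2 units did not pass.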

Other observations

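Among genes that were not members, Nlrc5, the transactivator of MHC class I genes, had 5.02, 3.78 and 4.12 CPM in ML, against 5.98, 23.2, 9.65 and 11.2 CPM in Control. Every ML library was below every control, at a log2 fold change of -1.54 (SE 0.46, edgeR adjusted p = 0.301). Ly6a, a surface antigen of stem and immune cells, had 18.4, 23 and 5.49 CPM in ML, against 7.92, 4.08, 6.73 and 6.1 CPM in Control, at 1.33 (SE 0.44, edgeR adjusted p = 0.301). ML 8 and ML 9 were above all controls and ML 10 was among them. Gvin1, a very large interferon-inducible GTPase, had 4.37, 0.84 and 1.46 CPM in FL, against 0.57, 0.306, 1.24 and 0.135 CPM in Control, at 1.97 (SE 0.82, edgeR adjusted p = 0.9997), with FL 6 below Control 3.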
